A study of Mus musculus with 4 samples.

Results

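The enzymes of glycolysis were followed in fetal oocytes through 10 genes listed by symbol, Hk1, Gpi1, Pfkp, Aldoa, Tpi1, Gapdh, Pgk1, Eno1, Pkm and Ldha, out of 55401 genes in the count files. All 10 were found by name. Aldoa is the name of 2 adjacent Ensembl genes, so that the symbols cover 11 gene rows. The oocytes came from female E18.5 fetuses. Their mothers, ICR mice mated with males on a normal diet, had received either that diet (ND) or one rich in fat (HFD) for 4 months from 3 weeks of age. Cells were sorted from ovaries by SSEA-1, a surface antigen of germ cells, and each sample pooled oocytes of several fetuses. Polyadenylated RNA was amplified by SMART-Seq2, which works on few cells, and there were 2 libraries per diet, named ND1, ND2, HFD1 and HFD2 after the replicate numbers in the labels. The labels call the cells primordial germ cells, although fetal oocytes at this age are in meiotic prophase.

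Glycolysis splits glucose into pyruvate in the cytosol. In the first steps ATP is spent by hexokinase and phosphofructokinase, and in the later steps ATP and NADH are gained at Gapdh, Pgk1 and Pkm. Lactate dehydrogenase then turns pyruvate into lactate and restores the NAD that Gapdh needs. Mammalian oocytes are known to use little glucose through glycolysis and to depend on pyruvate, which the surrounding somatic cells supply. Gapdh is also a customary reference gene, assumed in many assays to be constant.

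The upstream sequences of Gapdh, Eno1 and Ldha are given because these genes are known targets of HIF-1, a factor that binds ACGTG, or the variant GCGTG. They were chosen after their values had been seen, as the enzymes above 100 CPM (counts per 1000000 counted reads of the library) in some library whose first upstream window holds no exon in the GENCODE annotation. Each sequence is the 250 bases before the transcription start in RefSeq (GRCm38.p6), 5′ to 3′ on the strand of the gene, and the first window is shown where RefSeq lists several. Capitals mark matches on either strand to ACGTG, to the variant GCGTG and to the GC box GGGCGG. The windows lie at chr6:125165774-125166023 (minus strand) for Gapdh, chr4:150236458-150236707 (plus) for Eno1 and chr7:46845554-46845803 (plus) for Ldha.
Gapdh: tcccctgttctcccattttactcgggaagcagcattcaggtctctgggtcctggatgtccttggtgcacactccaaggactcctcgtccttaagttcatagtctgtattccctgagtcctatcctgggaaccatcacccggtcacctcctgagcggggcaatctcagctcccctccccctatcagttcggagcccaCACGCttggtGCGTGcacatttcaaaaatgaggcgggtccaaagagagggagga
Eno1: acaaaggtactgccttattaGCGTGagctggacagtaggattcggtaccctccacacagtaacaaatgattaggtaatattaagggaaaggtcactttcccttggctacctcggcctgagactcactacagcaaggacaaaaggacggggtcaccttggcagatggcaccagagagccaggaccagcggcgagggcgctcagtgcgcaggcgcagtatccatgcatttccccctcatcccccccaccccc
Ldha: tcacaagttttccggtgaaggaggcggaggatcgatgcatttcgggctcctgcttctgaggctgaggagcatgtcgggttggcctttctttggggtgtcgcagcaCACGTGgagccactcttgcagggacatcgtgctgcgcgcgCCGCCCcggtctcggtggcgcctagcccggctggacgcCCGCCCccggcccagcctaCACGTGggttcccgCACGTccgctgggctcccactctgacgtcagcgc

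In these windows, Ldha had 5 matches to ACGTG, of which 4 were the overlapping matches on both strands of a pair of CACGTG palindromes. Gapdh had 2 matches to GCGTG and Eno1 had 1. Over the first windows of all 10 enzymes, ACGTG was present in 2, GCGTG in 3 and the GC box in 6. Later windows also held ACGTG in Aldoa and Pkm, GCGTG in Hk1 and Ldha, and the GC box in Aldoa and Eno1. Among 32851 windows of the same length, which include later windows of a gene, the shares were 16.6% for ACGTG, 28.2% for GCGTG and 32.7% for the GC box. No enzyme had the TATA box TATAAA, which 12.4% of these windows had. A match is a description of the letters only.

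Total counts per library were between 5723605 and 8223255, and a floor of 3 counts was between 0.365 and 0.524 CPM. This floor is a matter of counting error alone, and amplified copies of a molecule were not told apart. A gene was taken as above background when its reads per kilobase of exon exceeded the 99th percentile of 1135 olfactory receptor genes in the same library, a limit between 7.44 and 12.5 reads per kilobase, with more than 3 counts. The germ cell markers summed to between 2089 and 6711 CPM, and 7 of 14 were above background in all 4 libraries, but Ddx4, a defining marker, had only 0.774 to 12.4 CPM. Stromal markers, 10 genes led by collagens, summed to 2844 and 69.9 CPM in ND1 and ND2 and to 2223 and 8193 CPM in HFD1 and HFD2. Pregranulosa markers summed to 30.2, 411, 20.0 and 2078 CPM in the same order, blood markers to 1976, 4.73, 4.96 and 27.3 CPM, endothelial markers to 25.2, 77.8, 714 and 46.0 CPM, and macrophage markers to 20.8, 14.1, 15.6 and 46.5 CPM. In such pools, fewer cells of a type and less RNA per cell cannot be told apart.

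The first 3 enzymes of the pathway were low in every library. Hk1, the hexokinase that traps glucose in the cell as glucose 6-phosphate, had 37 counts in ND1, 14 in ND2, 30 in HFD1 and 41 in HFD2. Pfkp, an isozyme of phosphofructokinase, the main control point of the pathway, had 86 counts in ND1, 44 in ND2, 65 in HFD1 and 41 in HFD2. Both genes were at background in all 4 libraries, so that their differences lie in the range of background reads. Gpi1, which converts glucose 6-phosphate to fructose 6-phosphate, had 54 counts in ND1, 227 in ND2, 33 in HFD1 and 65 in HFD2, and exceeded background in ND2 alone, at 29.0 CPM.

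Aldoa and Tpi1, which cleave the 6-carbon sugar and interconvert the resulting triose phosphates, were each abundant in a different library. Aldoa (chromosome 7 from 126795234 to 126800751) had 62 counts in ND1, 241 in ND2, 20 in HFD1 and 12374 in HFD2, or 7.54, 30.8, 3.10 and 2162 CPM. HFD2 was thus 70.1 times the next highest library, whereas HFD1 was the lowest and was at background. The second gene with this name, directly upstream, had 0, 5, 16 and 1 counts in the same order and was above background in HFD1 alone. It is not included where Aldoa is counted among the 10 enzymes. Tpi1 (chromosome 6 from 124810586 to 124814296) had 1317 counts in ND1, 26 in ND2, 12 in HFD1 and 10 in HFD2, or 160.2, 3.33, 1.86 and 1.75 CPM. Its level was high in ND1 only, and both HFD libraries were at background.

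The enzymes of the energy-yielding steps were no more even. Gapdh (chromosome 6 from 125161715 to 125166467), which oxidizes glyceraldehyde 3-phosphate, had 5477 counts in ND1, 92 in ND2, 23 in HFD1 and 60 in HFD2, or 666, 11.8, 3.56 and 10.5 CPM. As with Tpi1, ND1 stood apart, and ND2 and HFD2 had nearly the same level. Pgk1 (chromosome X from 106187100 to 106203699), which forms the first ATP of this phase, had 196 counts in ND1, 46 in ND2, 452 in HFD1 and 4 in HFD2, or 23.8, 5.89, 70.0 and 0.699 CPM. The HFD libraries held both its highest and its lowest level. Eno1 (chromosome 4 from 150236721 to 150248879), the enolase of most tissues, had 48 counts in ND1, 4772 in ND2, 13 in HFD1 and 31 in HFD2, or 5.84, 611, 2.01 and 5.42 CPM. Only ND2 was high, and ND1 lay close to HFD2. Pkm, a pyruvate kinase gene whose isoforms cannot be separated in counts per gene, had 54 counts in ND1, 72 in ND2, 9 in HFD1 and 309 in HFD2, or 6.57, 9.21, 1.39 and 54.0 CPM, so that the HFD libraries enclosed the ND libraries.

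Ldha (chromosome 7 from 46841475 to 46855627), the lactate dehydrogenase subunit that favours lactate formation, reached the highest level of the 10 enzymes. It had 36 counts in ND1, 23743 in ND2, 926 in HFD1 and 31 in HFD2, or 4.38, 3038, 143 and 5.42 CPM. ND2 was the highest library and ND1 the lowest, so that both HFD libraries lay between the ND libraries, with HFD2 close to ND1.

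**Figure D1:**
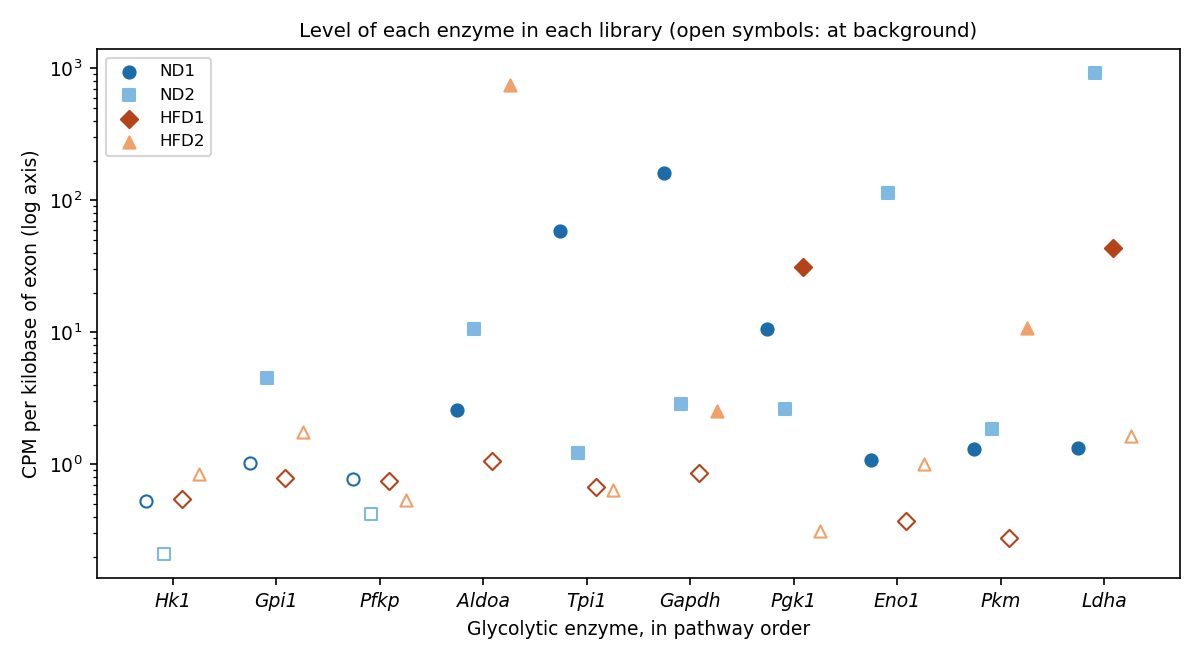
Level of each glycolytic enzyme in each library, in CPM per kilobase of exon on a log axis, with ND libraries in blue, HFD libraries in red and orange, filled symbols above background and open symbols at background. Single libraries stand far above the rest for 5 enzymes, namely ND1 for Tpi1 and Gapdh, ND2 for Eno1 and Ldha, and HFD2 for Aldoa.

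On the scale of CPM per kilobase of exon, on which genes can be compared, the mean level over the 4 libraries was highest for Ldha at 241, followed by Aldoa at 189, Gapdh at 41.8, Eno1 at 29.0, Tpi1 at 15.2, Pgk1 at 11.2, Pkm at 3.56, Gpi1 at 2.02, Pfkp at 0.622 and Hk1 at 0.530. The ranges over the libraries overlapped for all neighbours in this order except Gpi1 (0.792 to 4.50) and Pfkp (0.420 to 0.780). For Ldha the range was 1.32 to 918, and for Aldoa it was 1.06 to 743. The order of the means therefore rested mainly on single libraries.

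No library held all of the pathway. Of the 10 enzymes, 7 and 8 were above background in ND1 and ND2, and 2 and 3 in HFD1 and HFD2. Over all 19335 genes tested, 30.7% were above background in ND1, 27.3% in ND2, 16.6% in HFD1 and 18.7% in HFD2, so that fewer genes were above background in HFD over the whole transcriptome as well. No enzyme was above background in all 4 libraries, against 4.37% of the genes tested. The enzymes above 100 CPM were Gapdh and Tpi1 in ND1, Eno1 and Ldha in ND2, Ldha in HFD1 and Aldoa in HFD2. The sum of all 11 gene rows was 896 and 3747 CPM in ND and 248 and 2266 CPM in HFD, of which the enzyme with the most counts alone made up 74.3% (Gapdh), 81.1% (Ldha), 57.9% (Ldha) and 95.4% (Aldoa).

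The share of an enzyme's summed CPM that was held by its highest library was 98.1% for Aldoa, 97.9% for Eno1, 96.3% for Gapdh, 95.9% for Tpi1 and 95.2% for Ldha. It was 75.9% for Pkm, 69.7% for Pgk1, 55.8% for Gpi1, 39.6% for Hk1 and 31.4% for Pfkp. The median over the 10 enzymes was 85.5%, beside 45.4% over all genes tested. Thus 5 of the 10 enzymes had over 95% in a single library, and 6.64% of all genes tested did. These 5 were the enzymes above 100 CPM in some library. At most 30.7% of the genes tested were above background in a library, and they were not matched to the enzymes in level. The highest library was 70.1 times the second for Aldoa, 105 times for Eno1, 56.6 times for Gapdh, 48.1 times for Tpi1 and 21.2 times for Ldha.

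**Figure D2:**
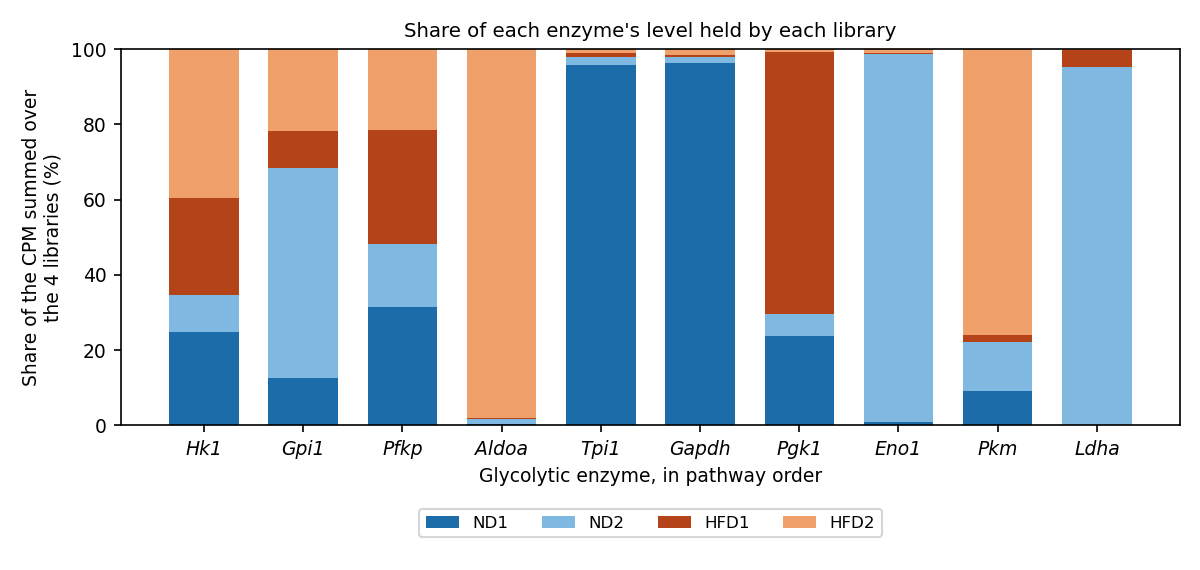
Share of the CPM of each enzyme, summed over the 4 libraries, that was held by each library, in percent. Single libraries fill nearly the whole bar for Aldoa (98.1%), Tpi1 (95.9%), Gapdh (96.3%), Eno1 (97.9%) and Ldha (95.2%), whereas Hk1 and Pfkp, which were at background, are spread over all 4.

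To see whether maternal diet was related to the RNA of these enzymes in fetal oocytes, HFD was compared with ND over all genes with edgeR's quasi-likelihood test. Fold changes below are given with their standard error (SE). None of the 10 enzymes was called at an adjusted p under 0.05 and a fold change over 1.5, and 0% of all 19335 genes tested were (0 genes). The limma-voom test also called 0 genes, with 750 at an unadjusted p under 0.05, and 2539 genes were called by DESeq2, described further on. At an unadjusted p under 0.05 there were 2 enzymes, Tpi1 and Eno1, both lower in HFD, against 11.2% of all genes tested (2171 genes). The fitted log2 fold change was above 0 for 5 enzymes and below 0 for 5, with a median of -0.54 over the enzymes and 0.03 over all genes. These signs were the same with TMM, RLE and library size scaling, although library size scaling moved the median of all genes to 0.21. With 2 libraries against 2, an exact permutation test cannot give a p below 0.333.

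Tpi1, Gapdh and Eno1 were the enzymes whose HFD libraries both lay below both ND libraries, an order that 13.4% of all genes tested had. The mean of Tpi1 was 81.7 ± 111 CPM in ND and 1.80 ± 0.0787 CPM in HFD (SD, n = 2 each). On the log2 scale, its fold change of -5.38 (SE 2.02, edgeR adjusted p = 0.406) shrank to -0.94 when ND1 was left out. Gapdh averaged 339 ± 463 CPM in ND and 7.02 ± 4.89 CPM in HFD, with a log2 fold change of -5.78 (SE 2.36, adjusted p = 0.406 from edgeR) that became -1.12 without ND1. Eno1 averaged 308 ± 428 CPM in ND and 3.71 ± 2.41 CPM in HFD, with a log2 fold change of -6.64 (SE 2.59, adjusted p = 0.406 from edgeR) that became -0.88 without ND2. For each of the 3 genes the SD in ND exceeded the mean, and the difference rested on a single ND library. The sum of the blood markers was also highest in ND1 (1976 CPM, 3 of 9 above background), the library in which Tpi1 and Gapdh were high. The part of these markers in the levels was not tested.

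Hk1 was the only enzyme with both HFD libraries above both ND libraries, an order found for 13.9% of all genes tested. Its mean was 3.15 ± 1.91 CPM in ND and 5.90 ± 1.78 CPM in HFD (SD, n = 2 each), all at background, with a log2 fold change of 0.85 (SE 0.57, adjusted p = 0.556 from edgeR).

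In the remaining 6 enzymes the diets overlapped, and leaving out a single library turned the sign. Aldoa averaged 19.2 ± 16.5 CPM in ND and 1083 ± 1527 CPM in HFD, with a log2 fold change of 5.18 (SE 2.95, adjusted p = 0.482 from edgeR), which became -2.16 without HFD2. That library also had the highest sum of stromal markers (8193 CPM, 7 of 10 above background) and of pregranulosa markers (2078 CPM, 3 of 10). Its sum of germ cell markers was the highest as well (6711 CPM, 11 of 14). Amhr2 (1113 CPM) and Rspo1 (920 CPM) made up most of the pregranulosa sum, whereas Fst had 383 CPM in ND2 and 2.10 CPM in HFD2. The stromal markers Dcn and Lum were above background in ND1 only. Col1a2 had 650 CPM in HFD1 and was at background in HFD2, at 23.4 CPM. The part of these markers in the level of Aldoa was not tested. Ldha averaged 1521 ± 2145 CPM in ND and 74.4 ± 97.6 CPM in HFD, with a log2 fold change of -3.95 (SE 3.38, adjusted p = 0.680 from edgeR) that became 4.63 without ND2. For Pgk1 the log2 fold change of 1.76 (SE 2.11, edgeR adjusted p = 0.798) became -5.06 without HFD1. In Pkm it went from 1.23 (SE 1.36, edgeR adjusted p = 0.772) to -2.0003 without HFD2. The value of Gpi1 was -1.32 (SE 0.93, edgeR adjusted p = 0.588) and became 0.15 without ND2, and that of Pfkp was 0.24 (SE 0.76, edgeR adjusted p = 0.947) and became -0.11 without ND2 and -0.88 without HFD1. Leaving out 1 library was thus enough to turn the direction of each of these genes, and for Pfkp either of 2 libraries did so.

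**Figure D3:**
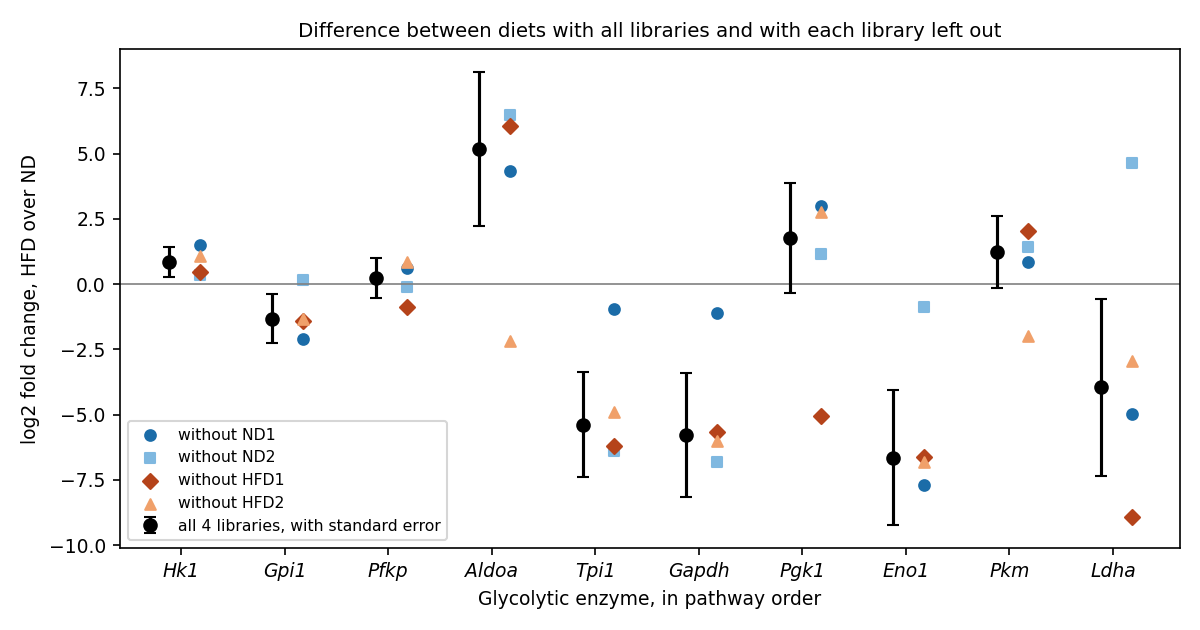
Log2 fold change of each enzyme between HFD and ND from edgeR, with black points and bars for all 4 libraries and the SE, and coloured symbols for fits with a library left out. The coloured symbols fall on both sides of 0 for 6 enzymes, and stay on the same side for Hk1, Tpi1, Gapdh and Eno1.

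With DESeq2's Wald test on all genes, 4 enzymes were called, Tpi1 (adjusted p = 0.0021), Gapdh (adjusted p = 8.4e-04) and Eno1 (adjusted p = 2.7e-04) as lower and Aldoa (adjusted p = 0.0098) as higher in HFD. Of the 9 enzyme rows that received an adjusted p these are 4, and of all 5601 genes that received one 45.3% were called (2539 genes), so that the share among the enzymes was near that of all genes.

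Counts on Gapdh need care, since its coding sequence has many retrotransposed copies in the mouse genome. Transcripts of 146 other genes, of which 133 are annotated as processed pseudogenes, matched a Gapdh transcript over at least 150 bases at 95% identity or more. Gm10359 and Gm12671 matched Gapdh at 100% identity over 1002 bases, with 2 and 1 counts in ND1 and 0 in the other libraries. Gm13394, the processed pseudogene with the most counts and chosen for that, lies on chromosome 2 from 28933610 to 28934609. It was identical to Gapdh at 999 of 1000 bases. The difference is A346C, counted from the A of the start codon of Gapdh, with the base of Gapdh first. The stretch around it, coding positions 316 to 376, is shown with the differing base in capitals. A read from the shared coding sequence that does not cover this base could come from either gene or from another close copy. A read that covers it can still match other copies.
Gapdh: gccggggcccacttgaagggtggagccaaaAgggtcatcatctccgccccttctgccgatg
Gm13394: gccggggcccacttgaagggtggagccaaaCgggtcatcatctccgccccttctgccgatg

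Gm13394 had 2289 counts in ND1, 25 in ND2, 0 in HFD1 and 2 in HFD2. It was therefore high in the same library as Gapdh, where it took 29.5% of the counts of the pair. The other 132 processed pseudogenes had 683, 271, 236 and 482 counts together in the 4 libraries, and the median over all 133 was 1 to 3 counts. When the 133 pseudogenes were added to Gapdh, a choice made after the counts had been seen, the sum was 1027 and 49.6 CPM in ND and 40.1 and 95.05 CPM in HFD. On this sum the diets overlapped, with a log2 fold change of -3.13 (SE 2.04, edgeR adjusted p = 0.552). With Gm13394 alone added, Gapdh had 944 and 15.0 CPM in ND and 3.56 and 10.8 CPM in HFD, without overlap. The overlap thus came with the counts of the other 132 pseudogenes, which exceeded those of Gapdh in ND2, HFD1 and HFD2.

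The other enzymes had few related transcripts at the same limits. Eno1 had 4, among them the retrogene Eno1b, which had 85 counts in ND2, where Eno1 had 4772, and 0 to 2 counts in the other libraries. Ldha had 5 and Pgk1 had 4, all processed pseudogenes, with at most 33 and 9 counts together in a library. Tpi1 had 2, and Gpi1, Pkm and the first Aldoa gene had 1 each, with at most 18 counts in a library. Pfkp overlaps the neighbouring gene Pitrm1 on the opposite strand, and Hk1 overlaps the antisense gene Hk1os. Pitrm1 had 1430 counts in HFD1 and 38 to 52 in the other libraries, while Pfkp had 65 in HFD1. Without a stated strand setting, reads of overlapping genes cannot be told apart. Pkm shares 455 bases with Gm49759, an unverified gene model inside it on the same strand, which had 20, 5, 0 and 17 counts, and reads of these bases cannot be assigned by strand.

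The genes around glycolysis were examined as a list of 70, of which 62 passed the filter on low counts. None was called by edgeR, and 10 had an unadjusted p under 0.05, 5 higher and 5 lower in HFD, against 11.2% of all genes tested. DESeq2 called 9 of these genes when run on all genes, where 2539 of 5601 genes with an adjusted p were called (45.3%). When run on the genes that passed the filter it called 8, and 2102 of 9589 genes with an adjusted p in all. How many genes of the list received an adjusted p was not counted. Of the 62 genes, 34 had a fitted log2 fold change above 0 and 28 below 0. Their median share of CPM in the highest library was 48.3%, beside 45.4% over all genes and 85.5% over the 10 enzymes. The difference was not tested, and the sets were not matched in level. The 4 of the 62 that exceeded 95% were Pdha1 (98.4%), Bsg (98.3%), Pdhb (97.2%) and Adpgk (96.6%), each of which was above 100 CPM in its highest library. Single high libraries were thus found outside the 10 enzymes as well.

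Among the other enzymes of glycolysis, 8 of 17 tested had a higher and 9 a lower fitted level in HFD. Pgam1, the phosphoglycerate mutase that acts between Pgk1 and Eno1, had 165 counts in ND1, 1927 in ND2, 3 in HFD1 and 8 in HFD2, with a log2 fold change of -7.42 (SE 1.89, adjusted p = 0.406 from edgeR). Both HFD libraries were at background and both ND libraries were above it, although ND2 was 12.3 times ND1 in CPM. Ldhb, the lactate dehydrogenase subunit that favours pyruvate, had 77 counts in ND1, 283 in ND2, 5565 in HFD1 and 196 in HFD2, where HFD1 alone was high.

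Of the 5 glucose transporters, 4 were at background in every library. Slc2a3, the transporter with the highest mean CPM of the 5, had 6.08 and 7.93 CPM in ND and 4.49 and 3.14 CPM in HFD and was among these 4. Slc2a4, the insulin-responsive transporter, had 8 counts in ND1, 2 in ND2, 13 in HFD1 and 53 in HFD2 (log2 fold change 2.85, unadjusted p = 0.015, adjusted p = 0.406 from edgeR), and exceeded background in HFD2 alone. Slc2a8 had 8 counts in both ND libraries and 12 and 24 in HFD, all at background (log2 fold change 1.41, unadjusted p = 0.014). Pfkfb3, which makes the activator of phosphofructokinase, was at background in every library, as were all 5 genes of its group.

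Of the 7 pyruvate and lactate transporters tested, 1 had an unadjusted p under 0.05 from edgeR, Mpc1, which was lower in HFD. Among 11 tested genes of pyruvate dehydrogenase and its kinases, 2 were higher and 2 lower at this limit. Of all genes tested, 11.2% were under it. Mpc1, a subunit of the mitochondrial pyruvate carrier, had 1917 counts in ND1, 135 in ND2, 1 in HFD1 and 23 in HFD2 (log2 fold change -6.37, unadjusted p = 0.034). Pdha1 and Pdhb, the paired subunits of the first enzyme of the pyruvate dehydrogenase complex, were high in different ND libraries. Pdha1 had 26 counts in ND1, 3374 in ND2, 9 in HFD1 and 13 in HFD2 (log2 fold change -7.02, unadjusted p = 0.035), whereas Pdhb had 2961 counts in ND1, 33 in ND2, 5 in HFD1 and 30 in HFD2 (log2 fold change -6.26, unadjusted p = 0.044). Pdha1 was thus above background in ND2 alone and Pdhb in ND1 alone. Pdk1, a kinase that inactivates this complex, had 39 counts in ND1, 12 in ND2, 344 in HFD1 and 62 in HFD2 (log2 fold change 3.72, unadjusted p = 0.043), and Pdp2, a phosphatase that reactivates it, had 24 counts in ND1, 12 in ND2, 31 in HFD1 and 264 in HFD2 (log2 fold change 3.06, unadjusted p = 0.020). Each exceeded background in 1 HFD library only. All 5 of these genes had an adjusted p of 0.406 from edgeR.

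Of the 62 genes, 5 (8.06%) were above background in all 4 libraries, beside 4.37% of all genes tested. They are named here after their values had been seen, namely Ldhb, Bsg, Pgls, Taldo1 and Pcx. Bsg, the chaperone of lactate transporters, had 50 counts in ND1, 98 in ND2, 9855 in HFD1 and 48 in HFD2. Pgls, an enzyme of the pentose phosphate pathway, had 78 counts in ND1, 298 in ND2, 2612 in HFD1 and 57 in HFD2. Pcx, the pyruvate carboxylase, had 50 counts in ND1, 55 in ND2, 362 in HFD1 and 89 in HFD2, and Taldo1, the transaldolase, had 4.38 and 9.47 CPM in ND and 137 and 5.42 CPM in HFD. All 5 were highest in HFD1, but how many of all genes above background in all 4 libraries were highest there was not counted. The sum of the endothelial markers was also highest in that library, at 714 CPM against 25.2 to 77.8 CPM in the others. Kdr alone made up 681 CPM of it, and 3 of the 8 markers were above background there. Pecam1 was highest in ND2, at 53.9 CPM against 9.91 CPM in HFD1. The germ cell markers summed to 5676 CPM in HFD1 and were highest in HFD2, at 6711 CPM. Of these markers, Dppa3, Sycp1, Sycp3, Nobox (1278 CPM), Figla (611 CPM), Kit, Mael and Zp3 (711 CPM) were highest in HFD1. Ddx4, Dazl and Tex14 were highest in ND2, and Stra8, Sycp2 and Sohlh1 in HFD2. The part of these markers in the levels was not tested.

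Among the genes of gluconeogenesis, Pck2, the mitochondrial phosphoenolpyruvate carboxykinase, had 40 counts in ND1, 26 in ND2, 97 in HFD1 and 84 in HFD2 (log2 fold change 1.91, unadjusted p = 0.031, adjusted p = 0.406 from edgeR). Its libraries were close within each diet, but only HFD1 was above background. Myc, a transcription factor known to raise glycolytic genes, had 45 counts in ND1, 22 in ND2, 3 in HFD1 and 5 in HFD2 (log2 fold change -2.71, SE 0.46, unadjusted p = 6.9e-04, adjusted p = 0.406 from edgeR), and was above background in ND1 alone. Hif1a, the oxygen-regulated subunit of HIF-1, had 49 counts in ND1, 154 in ND2, 9 in HFD1 and 40 in HFD2, and the diets overlapped in CPM (5.96 and 19.7 in ND, 1.39 and 6.99 in HFD).

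**Figure D4:**
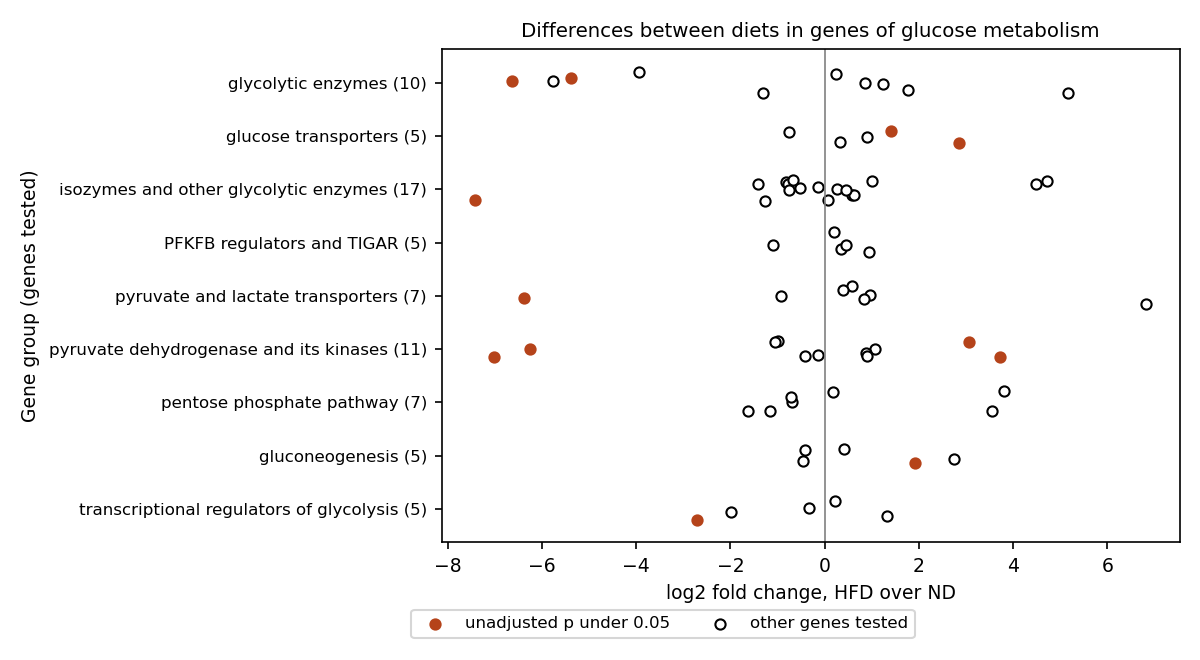
Log2 fold change between HFD and ND from edgeR for the 10 glycolytic enzymes and for 62 other genes of glucose metabolism, by group, with the number of genes tested in parentheses. Filled points have an unadjusted p under 0.05 (2 enzymes and 10 other genes), and none passed after adjustment over all genes.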

How the data were processed

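RNA-seq libraries of E18.5 fetal oocytes were analysed, 2 from ND and 2 from HFD mothers. Per the labels and the methods, the authors used Trim Galore for trimming, HISAT2 for alignment to mm10 and featureCounts for counting. The deposited values are raw counts per Ensembl gene, without normalization. The annotation release, the strand setting and the handling of multi-mapping reads were not given in the sources used here. Names, positions and exon lengths were taken from GENCODE M21 on GRCm38, which lacked 260 of the 55401 identifiers. The labels number the replicates but do not say whether pools shared mothers, so p-values measure the spread between these pools.

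CPM is the count over the library total times 1000000. Diets were compared with edgeR 4.0.16 in R 4.3.3 (TMM, filterByExpr, quasi-likelihood fit with legacy FALSE and robust FALSE), with Benjamini-Hochberg adjustment over 19335 genes. A gene was called at an adjusted p under 0.05 and a fold change over 1.5. The study named differentially expressed genes at these limits with DESeq2, so that the main test here is not the test of the study. A standard error is the absolute log2 fold change divided by √F of its test. Alternatives were other scalings and filters, DESeq2 1.42.0, limma 3.58.1 with voom, the legacy fit, a replicate block and each library left out. The functions were tested on simulated data. The enzymes, the pathway and marker lists and the tests were chosen with earlier results of these data known. Besides the 10 enzymes, named genes are the gene with the highest mean CPM in each pathway group and every pathway gene with an unadjusted p under 0.05. Taldo1, Adpgk, single marker genes and genes that resemble or overlap an enzyme were named after their values were seen. The background limit in a library is the 99th percentile, over 1135 olfactory receptor genes, of counts per exon kilobase, with more than 3 counts required. Similar transcripts were searched with blastn 2.17.0. Upstream windows came from RefSeq (GRCm38.p6).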

Additional observations from a re-analysis of the deposited data

How the results depend on the processing

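Between HFD and ND, DESeq2 on all genes called 2539 of the 5601 genes that received an adjusted p (45.3%). Among these were 4 of the 9 enzyme rows with an adjusted p and 9 other genes of glucose metabolism. On the filterByExpr genes, DESeq2 called 2102 of 9589 genes with an adjusted p, 3 of the 10 enzymes and 8 of the other genes. The legacy edgeR fit called 34 genes, 0 of them enzymes. All other settings, including each library left out, called 0 genes, as did edgeR with all libraries. The cause of the difference between tools was not tested. With the replicate number as a block, 0 genes were called and Pgk1 reversed to -0.72. Deviations of same-numbered libraries correlated at 0.0112 across genes, and the numbers are not known to pair the pools. With limma-voom, Pkm reversed to -1.28. Sizes moved too: with limma-voom, Aldoa was at 1.89, Ldha at -1.46 and Eno1 at -4.25, and with the block Aldoa was at 2.39, Ldha at -2.10, Gapdh at -3.90, Eno1 at -4.25, Pkm at 0.13 and Pfkp at 0.09. With each library left out, the log2 fold change lay between -2.12 and 0.15 for Gpi1, -0.88 and 0.84 for Pfkp, -2.16 and 6.47 for Aldoa, -5.06 and 2.98 for Pgk1, -2.0003 and 2.03 for Pkm and -8.91 and 4.63 for Ldha. Hk1 (0.33 to 1.52), Tpi1 (-6.37 to -0.94), Gapdh (-6.82 to -1.12) and Eno1 (-7.71 to -0.88) kept their sign. In these fits the lone library of a diet is assumed to vary like the other diet. Among these alternatives, no setting of edgeR or limma called an enzyme. Counts near 3, as for Pgk1 in HFD2 (4 counts), limit the fold changes.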
